A study of Mus musculus with 54 samples.

Results

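The genes described here are 8 genes of signalling by leukaemia inhibitory factor (LIF): the receptor genes Lifr, Il6st and Osmr, the transcription factor Stat3, and its direct target genes Socs3, Pim1, Pim3 and Junb. They were chosen by name, with earlier results of these data known. All 8 were found, among 38363 genes in a table of cells treated with retinoic acid (RA) and among 39055 genes in a table of LIF withdrawal and derived lineages. The study removed a 58 kb stretch holding Haunt, a long noncoding RNA gene, from mouse embryonic stem (ES) cells and followed RNA levels during differentiation.

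LIF is the cytokine that keeps mouse ES cells in self-renewal. It binds the LIF receptor chain (Lifr), which pairs with the shared signalling chain gp130 (Il6st), and the Janus kinases bound to these chains phosphorylate STAT3, which then enters the nucleus and activates genes. The oncostatin M receptor (Osmr) pairs with the same gp130 chain. Socs3 is the feedback inhibitor of this receptor complex, Pim1 and Pim3 are serine/threonine kinases that favour self-renewal and survival, and Junb is a subunit of the AP-1 transcription factor. LIF also reaches the ERK and PI3K pathways through adaptor proteins, so transcript levels of its targets are not a direct measure of STAT3 activity.

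The RA experiment used 46C cells, a 129/Ola ES cell line with a green fluorescent protein reporter at Sox1. Its groups were Haunt 58 kb KO cells at day 4 (libraries KO-i and KO-j), WT cells at day 4 (WT-1 and WT-2), Haunt 58 kb KO cells at day 2 (KO-i and KO-j) and WT cells at day 2 (WT-1 and WT-2), with 2 libraries in each. All of these cells were first held for 1 day in N2B27 medium with 1000 U/ml LIF and the 2i inhibitors (PD03259010 and CHIR99021), and were then moved to N2B27 with 2 µM RA and neither LIF nor 2i. Loss of added LIF is therefore shared by all 8 RA libraries, and no undifferentiated library is among them. The labels do not say whether KO-i and KO-j are separate clones or cultures, so p-values measure only the spread between these libraries, which may be technical. Pairs of values below stand in the order KO-i, KO-j and WT-1, WT-2.

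The LIF table has 7 columns of cells without the 58 kb deletion. ES cells of the lines CJ7 and JF4 (both 129S1/SVImJ) were grown in serum with 1000 U/ml LIF at day 0, and LIF was withdrawn for 2, 4 or 6 days. The authors averaged 3, 2 and 3 libraries into the columns of days 0, 2 and 6, while the day 4 column is 1 library. By the labels day 0 holds CJ7 and JF4, day 2 holds CJ7 and J1 (129S4/SvJae), day 4 holds CJ7 alone and day 6 holds all 3 lines, so J1 is absent from day 0, and line and strain cannot be told apart from day in these columns. The remaining columns are 1 library each: mesendoderm (ME), sorted by a T reporter after 6 days without LIF; neural progenitor cells (NPC), sorted by the Sox1 reporter after 6 days in N2B27; and neural stem cells (NSC), 46C-derived and kept in EGF and FGF-2, each at 10 ng/ml, to passage 15. NPC differ from day 0 in medium too, and NSC differ in line and medium. ME and NPC were sorted by a reporter, and no line is named here for either. 46C cells carry a Sox1 reporter, so NPC may differ from day 0 in line as well. Lineage therefore cannot be told apart from line, medium or sorting where these columns are set against day 0. No replicate error can be had in this table, and its values were not set against those of the RA table, which came from unstranded libraries while the LIF table came from stranded ones.

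STAT proteins bind a palindrome, TTC and GAA parted by 3 bases (TTCNNNGAA), which reads the same on both strands. Among the RefSeq promoter windows of the 8 genes (GRCm38.p6, 250 bases before to 50 bases after a start), only that of Socs3 held it, and the palindrome is common: 8.30% of 32851 promoter windows of all genes held a match. The 250 bases before the Socs3 start, chr11:117969367-117969616 on the minus strand, are shown because they hold this match, in capitals, with its first base 154 bases before the start; 71.6% of these bases are G or C. The 250 bases before each of 2 Lifr starts are shown because the tables list Lifr from different starts: the RA table from the upstream one and the LIF table from one 10970 bp downstream, the distance that also parts the RefSeq starts. The upstream Lifr window, chr15:7129322-7129571 on the plus strand, is 82.4% G or C, and the downstream one, chr15:7140292-7140541 on the plus strand, is 50.8% G or C.
Socs3: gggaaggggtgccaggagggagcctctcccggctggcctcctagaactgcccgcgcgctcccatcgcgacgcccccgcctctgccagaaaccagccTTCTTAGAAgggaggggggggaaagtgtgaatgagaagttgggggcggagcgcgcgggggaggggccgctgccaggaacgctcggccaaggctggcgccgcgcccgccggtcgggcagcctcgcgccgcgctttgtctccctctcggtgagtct
Lifr, upstream start: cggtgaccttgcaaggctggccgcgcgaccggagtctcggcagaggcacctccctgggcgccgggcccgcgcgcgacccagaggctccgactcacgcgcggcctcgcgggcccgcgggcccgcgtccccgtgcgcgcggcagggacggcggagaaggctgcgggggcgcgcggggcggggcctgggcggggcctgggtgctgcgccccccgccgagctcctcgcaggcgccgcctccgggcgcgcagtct
Lifr, downstream start: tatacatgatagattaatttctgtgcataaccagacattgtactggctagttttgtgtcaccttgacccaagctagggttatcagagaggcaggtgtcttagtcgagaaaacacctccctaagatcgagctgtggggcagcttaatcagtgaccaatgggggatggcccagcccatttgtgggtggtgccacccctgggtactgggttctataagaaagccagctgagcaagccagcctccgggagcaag
No match in a window says only that these letters are not in it, and a match is not a bound site.

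In mm9 coordinates, as the tables give them, Lifr spans chr15:7079572-7135343 in the RA table and chr15:7090542-7147489 in the LIF table. The Lifr entries therefore differ in their end as well as in their start, and the RA entry stops short of the end of the other. Osmr lies on the same chromosome at chr15:6763577-6824313, and Pim3 at chr15:88692624-88696156. Il6st spans chr13:113254278-113297068, Stat3 chr11:100748124-100800825, Socs3 chr11:117827401-117830680, Pim1 chr17:29627990-29632404 and Junb chr8:87500808-87502647. Pim1 overlaps 881 bp of Gm16912, an antisense gene. In the unstranded RA libraries reads of this pair cannot be told apart, and Gm16912 was listed at 1.99 to 3.48 FPKM at day 4 and at 6.44 to 10.8 FPKM at day 2. In the stranded LIF table, which holds other cells, Gm16912 was listed at 0 to 0.114 FPKM.

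Values are FPKM, fragments per kilobase of transcript scaled to the size of the library. From the steps between low values, the RA libraries hold about 9.08 to 16.5 M reads. The targeted transcript, Haunt (Gm15055), was listed at 3.08 and 0.447 FPKM in the KO libraries at day 4, against 31.8 and 40.6 FPKM in WT-1 and WT-2, and at 1.13 and 0 FPKM in KO cells at day 2, against 128 and 142 FPKM in WT cells. The KO-i libraries lay apart from the rest on the second principal component (14.1% of variance). At day 2 the summed level of 8 pluripotency markers was 751 FPKM in KO-i, against 1365 FPKM in KO-j and 1351 and 1592 FPKM in WT-1 and WT-2. In the LIF table day 0 carried the ES cell markers (Pou5f1 at 997 FPKM), ME carried T (192 FPKM) and Mixl1 (115 FPKM) but also Pou5f1 (486 FPKM), NPC carried Sox1 (21.8 FPKM) and Pax6 (55.9 FPKM), and NSC carried Fabp7 (1227 FPKM) and Olig2 (211 FPKM) with Gfap and Aqp4 under 1 FPKM.

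The first comparison asked how transcripts of the pathway changed between days 2 and 4 of RA. Transcripts of both LIF receptor chains and of Stat3 rose in both genotypes, those of Pim1 fell in both, and Pim3 did not pass the test in either. In 58 kb KO cells 4 of the 7 genes tested rose and 1 fell, where 10% of all 15705 genes tested rose and 7.81% fell. In WT cells 5 of the 7 rose and 1 fell, where 14.4% of all genes rose and 10.9% fell. The test was limma on log2(FPKM + 1), with Benjamini-Hochberg adjustment over all 15705 genes and a threshold of 0.05; Osmr did not reach the required 1 FPKM in 2 libraries. The median log2 difference of the 7 genes was 0.62 in KO cells and 1.25 in WT cells, beside medians of 0.04 over all genes tested in each genotype. With both KO-i libraries left out, 4 of the 7 passed in KO cells, without Junb, and 6 in WT cells. These comparisons share libraries with those of KO against WT, so they are not independent of them.

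On the log2 scale Lifr had the largest rise of the 7. Its level was 20.5 and 17.0 FPKM in the KO libraries at day 4, against 6.33 and 4.14 FPKM at day 2, which is 3.58 times as high on group means. In WT-1 and WT-2 it was 36.8 and 35.7 FPKM at day 4, against 3.71 and 4.48 FPKM at day 2, which is 8.86 times as high. Every day 4 library lay above every day 2 library (the days did not overlap for any of the 8 genes in either genotype, as for 59.8% of all genes tested in KO cells and 68.8% in WT cells), and the 2 genotypes overlapped at day 2 alone. The log2 difference between days was 1.68 ± 0.19 (SE) in KO cells (limma adjusted p = 0.00339) and 2.87 ± 0.19 in WT cells (limma adjusted p = 0.000339). At day 4, WT-1 and WT-2 held Lifr above 84.0% and 83.2% of the genes listed at 1 FPKM or more.

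Il6st, which encodes the chain that Lifr, Osmr and several other receptors share, also rose in both genotypes. Its level was 37.2 and 33.0 FPKM in the KO libraries at day 4, against 20.6 and 15.4 FPKM at day 2. In WT-1 and WT-2 it was 50.9 and 45.2 FPKM at day 4, against 14.7 and 14.2 FPKM at day 2. The days did not overlap in either genotype. The log2 difference between days was 0.94 ± 0.15 (SE) in KO cells (limma adjusted p = 0.00912) and 1.66 ± 0.15 in WT cells (limma adjusted p = 0.000742). In KO cells the adjusted p was 0.0627 when only the 4 KO libraries entered the fit.

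The fold between days was larger for Lifr than for Il6st, although in FPKM Il6st rose by more, with group means 17.1 FPKM apart for Il6st and 13.5 FPKM for Lifr in KO cells, and 33.6 FPKM for Il6st and 32.1 FPKM for Lifr in WT cells. The FPKM of Lifr per FPKM of Il6st therefore differed between days. This ratio was 0.551 and 0.517 in the KO libraries at day 4, against 0.308 and 0.269 at day 2. In WT-1 and WT-2 it was 0.723 and 0.789 at day 4, against 0.252 and 0.315 at day 2. At day 4 both KO libraries lay below both WT libraries, while at day 2 the genotypes overlapped. No test was made of this ratio, which has 2 libraries in each group.

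**Figure D1:**
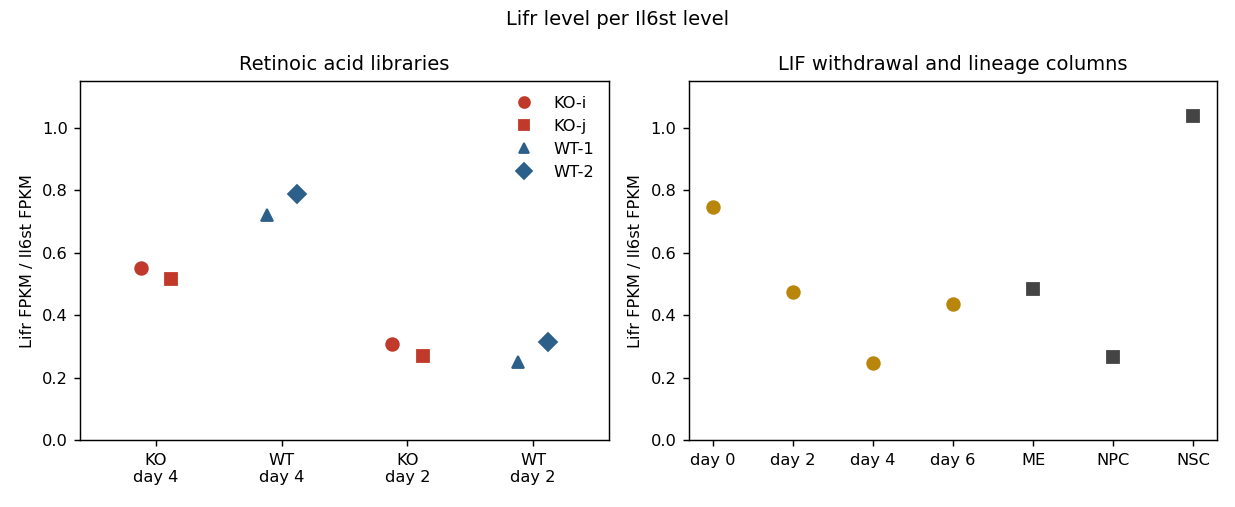
Level of Lifr divided by the level of Il6st (both in FPKM) in each RA library (left; KO in red, WT in blue) and in each LIF withdrawal or lineage column (right; circles, days of LIF withdrawal; squares, lineages). At day 4 of RA the ratio is 0.517 to 0.551 in KO libraries and 0.723 to 0.789 in WT libraries. The panels use Lifr entries with different starts and ends and are not to be set against each other.

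Osmr was near the detection limit. It was listed at 0.738 and 0.476 FPKM in the KO libraries at day 4, against 0.0239 and 0.0790 FPKM at day 2, and at 1.03 and 0.742 FPKM in WT-1 and WT-2 at day 4, against 0.117 and 0.0722 FPKM at day 2. All 4 day 4 libraries lay above all 4 day 2 libraries. Without the filter on low values, its log2 difference between days was 0.61 ± 0.12 (SE) in KO cells (limma adjusted p = 0.0456) and 0.78 ± 0.12 in WT cells (limma adjusted p = 0.0157). Osmr and Lifr are neighbours on chromosome 15. Rictor, next to Osmr on the side away from Lifr, differed by 0.14 between days in WT cells on the log2 scale (limma adjusted p = 0.590). Egflam, next to Lifr on the other side, rose by 1.78 (limma adjusted p = 0.00139).

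Stat3, the factor that the receptors activate, rose in both genotypes. Its level was 36.1 and 31.5 FPKM in the KO libraries at day 4, against 16.0 and 13.5 FPKM at day 2. In WT-1 and WT-2 it was 36.1 and 37.3 FPKM at day 4, against 13.3 and 12.8 FPKM at day 2. The genotypes overlapped at day 4, and both KO libraries lay above both WT libraries at day 2 by small margins. The log2 difference between days was 1.14 ± 0.12 (SE) in KO cells (limma adjusted p = 0.00288) and 1.42 ± 0.12 in WT cells (limma adjusted p = 0.000608).

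**Figure D2:**
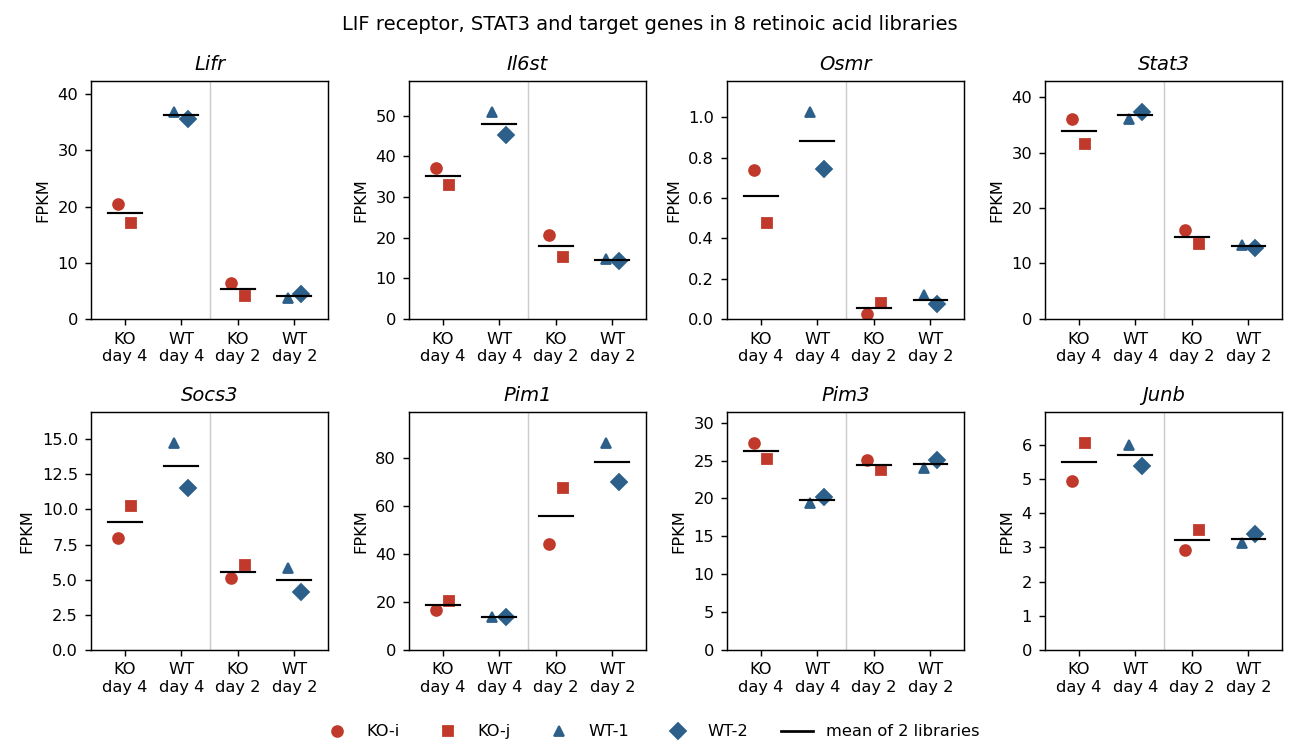
FPKM of the 8 genes in each RA library, with day 4 left of day 2 and KO (red) left of WT (blue) at each day; horizontal lines are means of 2 libraries and each panel has its own axis from 0. Lifr at day 4 lies at 17.0 to 20.5 FPKM in KO libraries and at 35.7 to 36.8 FPKM in WT libraries, and Pim1 at day 4 lies below every day 2 library in both genotypes.

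The 4 target genes did not move as 1 group. Socs3, the feedback inhibitor, was at 7.99 and 10.2 FPKM in the KO libraries at day 4, against 5.10 and 6.03 FPKM at day 2. In WT-1 and WT-2 it was at 14.7 and 11.5 FPKM at day 4, against 5.86 and 4.08 FPKM at day 2. The days did not overlap in either genotype, but the log2 difference passed in WT cells, at 1.25 ± 0.21 (SE, limma adjusted p = 0.00574), and missed the threshold in KO cells, at 0.62 ± 0.21 (limma adjusted p = 0.0779). With library names as a block it passed in KO cells too (limma adjusted p = 0.0215). That the rise differs between the genotypes was not shown: the difference of the 2 changes was -0.63 ± 0.29 (limma adjusted p = 0.901).

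Pim1 went the other way. It was at 16.6 and 20.3 FPKM in the KO libraries at day 4, against 43.8 and 67.2 FPKM at day 2, and at 13.5 and 13.8 FPKM in WT-1 and WT-2 at day 4, against 86.2 and 70.0 FPKM at day 2. At day 2 it had the highest level of the 8 genes in all 4 libraries, and at day 4 it stood below Pim3 in all 4. The log2 difference between days was -1.51 ± 0.21 (SE) in KO cells (limma adjusted p = 0.00626) and -2.43 ± 0.21 in WT cells (limma adjusted p = 0.000608). In KO cells the adjusted p was 0.0522 when only the 4 KO libraries entered the fit. Pluripotency markers fell over the same days, with a summed level of 99.3 to 170 FPKM at day 4 against 751 to 1592 FPKM at day 2 over both genotypes (7 of 8 markers passed in each); their part in the fall of Pim1 was not tested. In bulk samples, fewer cells of a type and less RNA per cell cannot be told apart.

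Pim3, the close relative of Pim1, stayed within a narrow range. Its level was 27.3 and 25.2 FPKM in the KO libraries at day 4, against 25.0 and 23.8 FPKM at day 2, and 19.4 and 20.1 FPKM in WT-1 and WT-2 at day 4, against 24.0 and 25.1 FPKM at day 2. The log2 difference between days was 0.10 ± 0.10 (SE) in KO cells (limma adjusted p = 0.511) and -0.30 ± 0.10 in WT cells (limma adjusted p = 0.0631). In WT cells it passed when libraries were scaled to a common median of gene ratios (adjusted p = 0.0331) or centred by chromosome (adjusted p = 0.0370).

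Junb had the lowest level of the 7 tested genes in all 8 libraries. It was at 4.93 and 6.06 FPKM in the KO libraries at day 4, against 2.92 and 3.51 FPKM at day 2, and at 6.01 and 5.40 FPKM in WT-1 and WT-2 at day 4, against 3.12 and 3.38 FPKM at day 2. The days did not overlap, and the genotypes overlapped at both days. The log2 difference between days was 0.62 ± 0.16 (SE) in KO cells (limma adjusted p = 0.0374) and 0.66 ± 0.16 in WT cells (limma adjusted p = 0.0231). This is the least firm of the calls: in KO cells it was lost when any 1 of the 8 libraries was left out (adjusted p 0.0615 to 0.139), and in WT cells when any 1 of the 4 WT libraries was (adjusted p 0.0824 to 0.124).

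The second comparison set Haunt 58 kb KO cells against WT cells at each day. At day 4, Lifr, Il6st and Socs3 were lower, and Pim1 and Pim3 higher, in both KO libraries than in both WT libraries, but none of the 7 genes tested passed the adjusted threshold, and neither did any other gene (0% of 15705; 2263 genes and 4 of the 7 had an unadjusted limma p under 0.05). Values of 6 of the 8 genes did not overlap between the genotypes at day 4, 4 of them lower in KO cells and 2 higher, where 46.6% of all genes tested did not overlap. At day 2, 3 of the 8 did not overlap, where 37% of all genes tested did not. No member passed at day 2 either, where 0.0255% of all genes did, with 1 of the 7 and 803 of all genes at an unadjusted limma p under 0.05.

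Lifr at day 4 was the largest of these log2 differences. The KO mean was 18.8 ± 2.5 FPKM and the WT mean 36.2 ± 0.81 FPKM (SD, n = 2 each), so KO cells held 0.518 times the WT level; the log2 difference was -0.92 ± 0.19 (SE), with a limma adjusted p of 0.165 and 0.147 to 0.614 when 1 library was left out. It was -1.05 with both KO-i libraries left out (limma adjusted p = 0.342). At day 2 the difference had the other sign, 0.27 ± 0.19 (limma adjusted p = 0.880), and rested on KO-i, since it was 0.02 with both KO-i libraries left out. The change of the KO effect between days was -1.19 ± 0.27 (limma adjusted p = 0.710).

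Il6st followed in smaller steps. Its mean was 35.1 ± 3.0 FPKM in KO cells and 48.1 ± 4.1 FPKM in WT cells at day 4 (SD, n = 2 each), a log2 difference of -0.44 ± 0.15 (SE, limma adjusted p = 0.272). For Socs3 the means were 9.11 ± 1.6 FPKM in KO cells and 13.1 ± 2.3 FPKM in WT cells, a log2 difference of -0.48 ± 0.21 (limma adjusted p = 0.346). Pim3 had the steadiest difference in the other direction, with 26.3 ± 1.5 FPKM in KO cells and 19.7 ± 0.52 FPKM in WT cells, a log2 difference of 0.39 ± 0.10 (limma adjusted p = 0.194). Pim1 was at 18.5 ± 2.6 FPKM in KO cells and 13.6 ± 0.17 FPKM in WT cells, a log2 difference of 0.40 ± 0.21 (limma adjusted p = 0.410). Stat3 and Junb differed by -0.12 and -0.05 at day 4, and their genotypes overlapped.

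**Figure D3:**
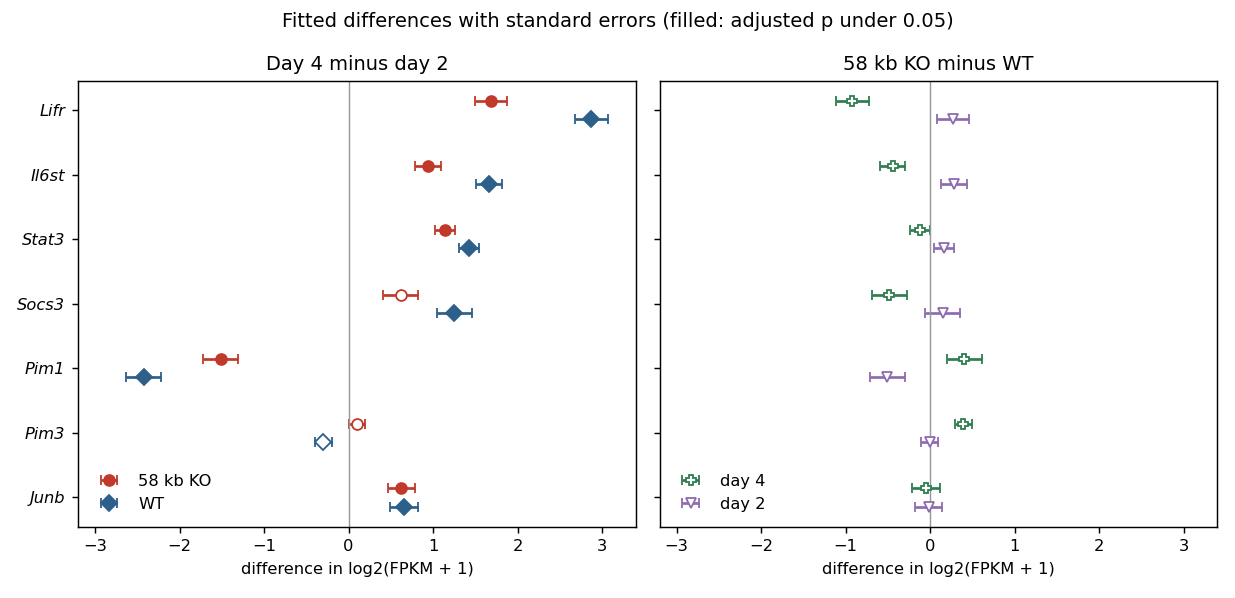
Fitted differences in log2(FPKM + 1) with standard errors for the 7 genes tested: day 4 minus day 2 in KO (red) and WT (blue) cells on the left, and KO minus WT at day 4 (green) and day 2 (purple) on the right. Filled symbols passed an adjusted p of 0.05; on the right none did, and Lifr at day 4 lies farthest from 0, at -0.92.

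Summed markers of extraembryonic endoderm, like Lifr, were higher at day 4 than at day 2 and, at day 4, lower in both KO libraries than in both WT libraries. Their summed level over 8 genes was 525 and 556 FPKM in the KO libraries at day 4, against 954 and 949 FPKM in WT-1 and WT-2, and 134 to 163 FPKM over both genotypes at day 2. Between the days, 4 of the 8 rose in KO cells and 7 of the 8 in WT cells. Between KO and WT cells at day 4 none of the 8 passed (6 had an unadjusted limma p under 0.05), and their median log2 difference was -0.84. Most of the sum was Col4a1, a basement membrane collagen, at 273 and 328 FPKM in KO cells and 563 and 589 FPKM in WT cells at day 4, while Afp was under 1 FPKM in KO cells. The pattern was not particular to this set, but the other sums given here rested mostly on single genes at day 4. Summed neural stem cell and glia markers were at 4.05 and 5.57 FPKM in KO cells and 7.52 and 8.34 FPKM in WT cells at day 4. Over both genotypes at day 2 they were at 2.55 to 4.14 FPKM. Most of the day 4 sum was Slc1a3, at 3.70 and 4.86 FPKM in KO cells and 7.17 and 7.85 FPKM in WT cells. In each of these libraries 5 of the 6 markers were under 1 FPKM. Summed mesendoderm markers were also lower in KO cells at day 4 (5.84 and 6.33 FPKM, against 14.7 and 23.6 FPKM), but had not risen there from day 2 (7.18 and 8.96 FPKM). Most of this day 4 sum was Lhx1, at 4.27 and 4.66 FPKM in KO cells and 12.6 and 20.5 FPKM in WT cells. At day 4, 3 to 5 of the 6 markers were under 1 FPKM. Eomes fell between the days in both genotypes (limma adjusted p = 0.0210 in KO cells and 0.0171 in WT cells). The part of any of these cell types in the Lifr and Il6st values was not tested.

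The LIF table holds undifferentiated ES cells with LIF, of which the RA table has no library. In the LIF table the members were read as values with a mark at 1 unit of log2(FPKM + 1) against day 0. Socs3 had the largest log2 difference after withdrawal. It was at 3.55 FPKM at day 2, 4.49 FPKM at day 4 and 9.40 FPKM at day 6, against 31.4 FPKM at day 0, so the day 0 level was 8.85 times that of day 2. At day 0 it had the highest level of the 8 genes and at day 2 it was above Lifr and Osmr only.

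Lifr, Stat3 and Il6st shared a dip at day 2 or 4 with higher values at day 6. Lifr was at 2.57, 2.01 and 5.09 FPKM at days 2, 4 and 6, against 7.45 FPKM at day 0. Stat3 was at 4.63, 7.30 and 12.0 FPKM at days 2, 4 and 6, against 13.6 FPKM at day 0. For Il6st the values were 5.41, 8.14 and 11.7 FPKM, against 9.97 FPKM at day 0, with no column past the mark. At day 6 none of the 3 was past the mark. The ratio of Lifr to Il6st was 0.475, 0.247 and 0.436 at days 2, 4 and 6, against 0.748 at day 0.

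Pim1 and Pim3 had lower values at each later day than at day 0. Pim1 was at 15.7, 7.90 and 9.31 FPKM at days 2, 4 and 6, against 20.0 FPKM at day 0, and Pim3 at 11.7, 7.11 and 6.50 FPKM, against 18.5 FPKM. Junb had no such difference, with 19.3, 14.7 and 23.3 FPKM at days 2, 4 and 6, against 14.8 FPKM at day 0. Osmr stayed under 1 FPKM in all 7 columns, its highest value being 0.282 FPKM at day 6.

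Counted over the 7 genes kept by the filter on low values, the lower ones at day 2 were Lifr, Stat3 and Socs3 (3 of 7, where 4.34% of 12510 genes were lower past the mark). At day 4 they were Lifr, Socs3, Pim1 and Pim3 (4 of 7, where 7.95% were), and at day 6 Socs3, Pim1 and Pim3 (3 of 7, where 6.29% were). No gene of the 7 was higher past the mark at days 2, 4 and 6, where 4.97%, 7.08% and 12.4% of all genes were. The median difference of the 7 was -0.78, -1.24 and -0.47 at days 2, 4 and 6, beside 0.04, -0.02 and 0.10 over all genes kept.

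**Figure D4:**
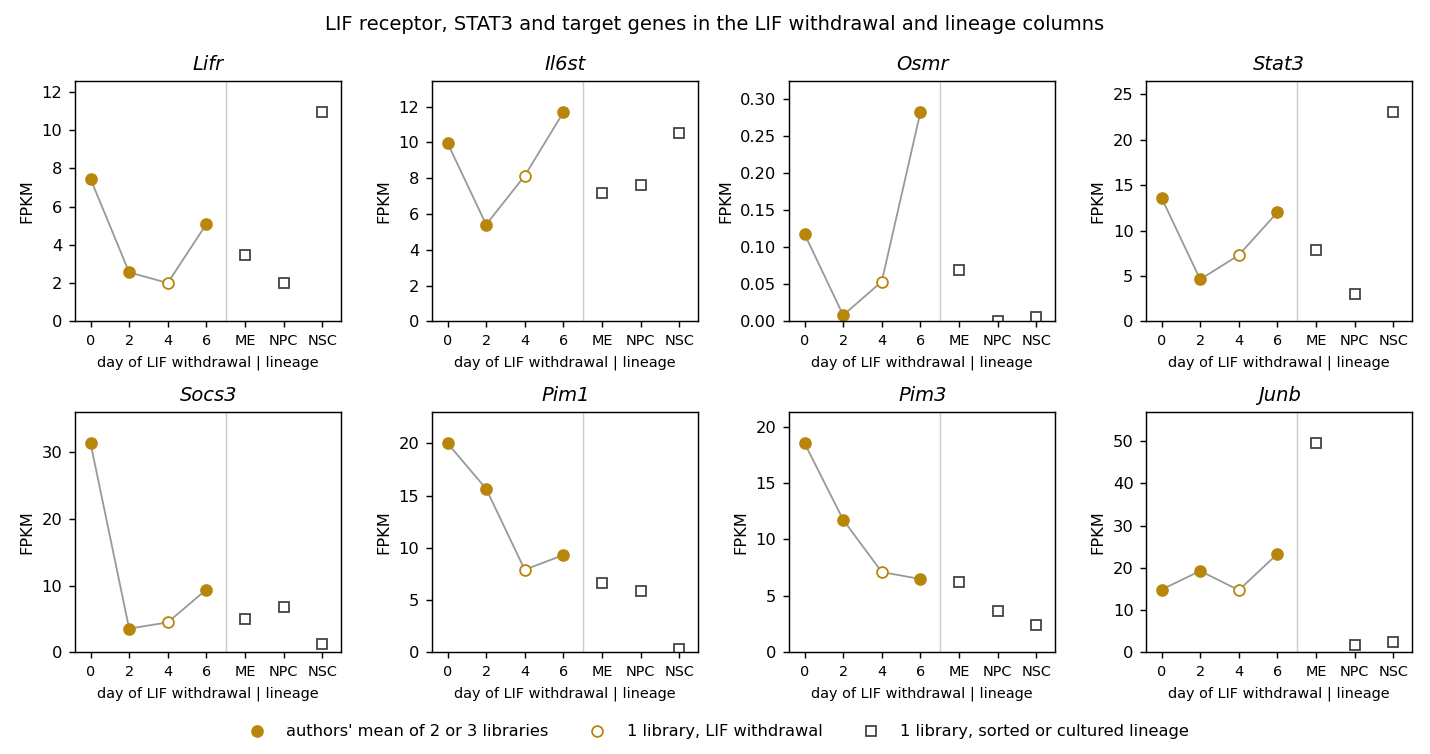
FPKM of the 8 genes by day of LIF withdrawal (circles; filled, authors' mean of 2 or 3 libraries; open, 1 library) and in ME, NPC and NSC (squares, 1 library each), with each axis from 0. Socs3 is highest at day 0 (31.4 FPKM), Junb in ME (49.5 FPKM), and Lifr and Stat3 in NSC (10.9 and 23.0 FPKM).

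The columns of the derived lineages, each of 1 library, differed from one another in which part of the pathway they carried. In ME, Junb was at 49.5 FPKM, against 14.8 FPKM at day 0, the only member higher past the mark in any column (1 of 7, where 9.71% of genes were), and Socs3, Pim1 and Pim3 were lower (3 of 7, where 10% were) at 5.02, 6.67 and 6.25 FPKM. In NPC, 6 of 7 were lower (where 11.3% were): Lifr at 2.03 FPKM, Stat3 at 2.97 FPKM, Socs3 at 6.78 FPKM, Pim1 at 5.86 FPKM, Pim3 at 3.68 FPKM and Junb at 1.77 FPKM. Il6st, at 7.61 FPKM in NPC, was not past the mark, and Osmr was listed at 0.

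NSC carried the receptor and the factor but little of the targets. Lifr was at 10.9 FPKM, Il6st at 10.5 FPKM and Stat3 at 23.0 FPKM in NSC, against 7.45, 9.97 and 13.6 FPKM at day 0, and the NSC values of Lifr and Stat3 were the highest of the 7 columns. Of the 4 targets, Socs3 was at 1.26 FPKM, Pim1 at 0.288 FPKM, Pim3 at 2.41 FPKM and Junb at 2.52 FPKM (4 of 7 lower, where 16.5% were). Other STAT3 targets, known from many cells, were mixed in NSC. Of 10 kept, 1 was higher past the mark (Ccnd1, at 107 FPKM, against 18.8 FPKM at day 0) and 4 were lower. Their median difference was 0.26, beside 0.06 over all genes kept. Socs3 per Stat3 was 0.0548 in NSC and 2.28 in NPC, against 2.31 at day 0. The order of columns cannot be read more finely than this, since no column has a replicate spread.

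The rest of the pathway was described from 9 lists of 72 genes, of which 65 were tested in the RA table. Between the days, 9 rose and 2 fell in KO cells, which is 13.8% and 3.08% of the 65, beside 10% and 7.81% of all genes tested. In WT cells 9 rose and 11 fell, which is 13.8% and 16.9%, beside 14.4% and 10.9% of all genes tested. The shares that rose were near those of all genes. The median log2 difference over the 65 was 0.14 in KO cells and 0.06 in WT cells, close to the 0.04 of all genes. Between KO and WT cells none of the 65 passed at day 4 (7 at an unadjusted limma p under 0.05) or at day 2 (4 at that level). Log2 differences between days from limma are given for the genes named.

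Of 9 cytokine genes of the family 5 were tested, and 1 fell in each genotype. It was Ctf2, a cardiotrophin gene, with a difference of -1.47 in KO cells (limma adjusted p = 0.0143) and -1.49 in WT cells (limma adjusted p = 0.00852). Lif itself was at 4.98 and 6.28 FPKM in the KO libraries at day 4 and at 4.78 and 2.92 FPKM in WT-1 and WT-2, and did not pass between days (limma adjusted p = 0.581 in KO cells and 0.705 in WT cells). Il6 was listed at 0 in all 8 libraries. Of 5 receptors that pair with gp130, 4 were tested and Il6ra, the IL-6 receptor, was the only one to fall: it was at 0.684 and 0.756 FPKM in KO cells and at 0.662 and 0.577 FPKM in WT cells at day 4, against 3.67 and 1.98 FPKM in KO cells and 4.31 and 3.04 FPKM in WT cells at day 2 (limma adjusted p = 0.0262 in KO cells and 0.00621 in WT cells). Cntfr, the ciliary neurotrophic factor receptor, had the highest level of this list, at 33.4 and 41.1 FPKM in KO cells and 46.2 and 49.8 FPKM in WT cells at day 4, and did not pass.

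Of 4 Janus kinase genes, Jak2 alone passed, rising by 0.91 in KO cells (limma adjusted p = 0.0155) and by 1.02 in WT cells (limma adjusted p = 0.00647). Jak1, the kinase on which gp130 depends most, stayed at 23.7 to 25.2 FPKM at day 4 over both genotypes, against 20.6 to 21.8 FPKM at day 2, and did not pass. Of 6 other STAT genes, Stat5a rose in KO cells by 0.77 (limma adjusted p = 0.0316), while Stat2 and Stat4 fell in WT cells (differences -0.62 and -0.71, limma adjusted p = 0.0114 and 0.0340). Of 14 negative regulators none passed in KO cells (4 at an unadjusted limma p under 0.05), and Socs1 and Socs5, other members of the Socs family, rose in WT cells by 1.07 and 0.69 (limma adjusted p = 0.00782 and 0.0200). Of 6 adaptors to ERK and PI3K none passed in KO cells (4 at an unadjusted limma p under 0.05), and Gab1 and Shc1 fell in WT cells (difference -0.71 for both, limma adjusted p = 0.0266 and 0.0177).

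Of 7 factors of ES cells that LIF and STAT3 control, Klf5 and Tfcp2l1 fell in WT cells (differences -1.52 and -1.26, limma adjusted p = 0.0140 and 0.00758), with adjusted p of 0.103 and 0.0514 in KO cells. Myc, a transcription factor of cell growth, rose by 1.38 in KO cells (limma adjusted p = 0.00897) and by 0.77 in WT cells (limma adjusted p = 0.0385). Of 11 STAT3 targets known from many cells 2 rose in each genotype, Bcl3 (adjusted p = 0.0107 in KO cells and 0.0499 in WT cells) and Bcl6 (adjusted p = 0.0438 in KO cells and 0.0352 in WT cells), both transcriptional regulators. Of 10 AP-1 and immediate early partners 8 were tested. In KO cells Fos, Fosl2, Jun and Jund rose, and in WT cells Fosl2, Jun and Jund rose while Ier2, Atf3 and Pim2 fell. Fosl2 had the largest change, 1.79 in KO cells (limma adjusted p = 0.00387) and 2.03 in WT cells (limma adjusted p = 0.00119), beside 0.62 and 0.66 for Junb.

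In the LIF table the ES cell factors had the lowest list medians. Myc, also on this list, was not among the genes read from the LIF table. Of 6 kept, 5 were lower past the mark at day 2 with a list median of -2.11, 4 at day 6 with -2.06, and all 6 in NSC with -4.42. Klf4 was at 2.20 FPKM at day 2, 1.29 FPKM at day 4 and 4.62 FPKM at day 6, against 43.4 FPKM at day 0, and Tfcp2l1 at 1.60, 0.813 and 1.83 FPKM, against 20.8 FPKM. Bcl3 was at 0.847, 0.635 and 1.72 FPKM at days 2, 4 and 6, against 8.72 FPKM at day 0. Of the other receptors, Cntfr was at 57.4 FPKM in NPC and 15.0 FPKM in NSC, against 2.31 FPKM at day 0, and Il11ra1 at 8.39 FPKM in NPC and 16.4 FPKM in NSC, against 2.73 FPKM. Jak2 was at 28.9 FPKM in NPC and 8.50 FPKM in NSC, against 1.74 FPKM at day 0. Jun was at 63.2 FPKM in NSC, where Junb was at 2.52 FPKM, and Pim2, the third Pim kinase, was at 87.6 FPKM at day 2, against 16.8 FPKM at day 0.

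The remaining lists had smaller medians there. At day 6 the medians were 0.43 for 2 cytokines kept, 1.03 for 3 receptors, 0.31 for 4 Janus kinases, 1.08 for 5 other STATs, 0.14 for 13 negative regulators, 0.10 for 6 adaptors, -0.08 for 10 STAT3 targets of many cells and 0.51 for 9 AP-1 partners, beside 0.10 over all genes kept. Stat6 was at 10.2 FPKM at day 6, against 4.22 FPKM at day 0, while Stat4 was at 0.474 FPKM at day 6, against 3.98 FPKM at day 0. Socs2 was at 7.98 FPKM at day 6, against 26.2 FPKM at day 0. The day 6 column also differed in cell makeup, with Hbb-bh1, an embryonic haemoglobin, at 40.9 FPKM, against 0 at day 0, and 8 of 8 pluripotency markers lower past the mark; the part of these cells in the values was not tested.

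The genes whose profile over the 8 RA libraries was most like each member were found by the root mean square difference of centred log2(FPKM + 1) values among 9177 named genes of mean level 5 FPKM or more. For Lifr these were Tmem98 (0.166), Flrt3 (0.173) and Fhl2 (0.180). Flrt3 was at 20.2 and 22.2 FPKM in the KO libraries at day 4, against 42.4 and 41.4 FPKM in WT-1 and WT-2, and at 4.71 to 6.33 FPKM at day 2 over both genotypes. For Il6st they were Lamp2 (0.069), Cd63 (0.074) and Rab3il1 (0.095). For Stat3 they were Nrp1 (0.073) and Hipk3 (0.078), for Socs3 Shc2 (0.114), for Pim1 4930509G22Rik (0.136), for Pim3 Plekha3 (0.039), for Junb Slc22a23 (0.060) and for Osmr B4galt1 (0.036). All profiles share the 8 libraries, and a small value for a gene that hardly varies, such as Osmr on this scale, says little.

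Over the 7 LIF columns, among 7608 genes, the genes most like the members were others: Crtap for Lifr (0.272), Xbp1 for Il6st (0.101), Gfpt2 for Stat3 (0.209), Ankrd37 for Socs3 (0.326), Gm13157 for Pim1 (0.232), Trim13 for Pim3 (0.168), Coch for Junb (0.432) and Tox4 for Osmr (0.050). The first gene named for a member was a different one in the 2 tables in each of the 8 cases. With 9177 and 7608 candidates over unlike samples, this says little. Gfpt2 was at 8.40, 12.8 and 18.1 FPKM at days 2, 4 and 6, against 26.0 FPKM at day 0, and at 31.5 FPKM in NSC, so it had the dip and the high NSC level of Stat3.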

How the data were processed

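The deposited tables hold gene-level FPKM values made by the authors, a unit judged from the values and gene spans because no header names it. Per the submitters' processing notes the tools were CASAVA, Bowtie 1.0.0, TopHat2 2.0.11 and MACS 1.4.2, with build mm9; the role of each, and the program that computed FPKM, are not given in the sources used here. Of 54 samples in the series, 20 are in the 2 tables. The 8 genes and all lists were chosen with earlier results of these data known. RA libraries were fitted together with limma 3.58.1 (R 4.3.3) on log2(FPKM + 1), with an intensity trend, 4 residual degrees of freedom and 15705 genes of at least 1 FPKM in 2 libraries; fold changes on this scale understate those of low genes. The fit was tested on simulated data. Each named gene follows a rule: all members, list genes past the threshold or with the smallest p, and the most alike genes; Lif, Il6, Cntfr, Jak1, Rictor, Egflam and markers were named after their values were seen. A list gene that the rule named is not reported here. Read depth, estimated from value steps, limits low genes such as Osmr. Alternatives were pseudocount, filters, scaling, trend, groups in the fit, chromosome centring, library name as a block, each library left out and, chosen after seeing the data, both KO-i libraries left out. Promoter sequences are from RefSeq (GRCm38.p6; all 8 genes matched).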

Additional observations from a re-analysis of the deposited data

Results flagged for a closer look

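Il6st and Pim1 were singled out because both KO libraries lay on one side of both WT libraries at day 4 and on the other side at day 2. For Il6st the KO minus WT difference was -0.44 at day 4 and 0.28 at day 2, and the change between days was -0.724 on the log2 scale (SE 0.21, limma adjusted p = 0.748). For Pim1 it was 0.40 at day 4 and -0.51 at day 2, and the change was 0.912 (SE 0.29, limma adjusted p = 0.791). Neither change passed over all genes, nor did that of any of the 15705 genes tested (873 at an unadjusted limma p under 0.05). With both KO-i libraries left out the changes were -0.61 and 0.75, and the day 2 differences were 0.08 for Il6st and -0.21 for Pim1. At day 2 the summed pluripotency marker level was 751 FPKM in KO-i, against 1365 FPKM in KO-j; its part in these differences was not tested.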

How the results depend on the processing

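Depth limits low genes such as Osmr, and each group has 2 libraries. The number of genes past the threshold for KO against WT at day 2 was 4, and it was 7 without the filter, 0 with only the 2 groups compared, 1 with both KO-i libraries left out and 0 to 5 with 1 library left out. At day 4 it was 0, and 1 with a pseudocount of 0.1, without the filter or with both KO-i libraries left out, and 0 to 7 with 1 library left out (7 without KO-j at day 4). For day 4 against day 2 in KO cells it was 2802, and 1596 without the filter, 396 with only the 2 groups compared, 736 with both KO-i libraries left out and 980 to 2159 with 1 library left out (1639 and 980 without KO-i and KO-j at day 2, 1125 without KO-i at day 4). In WT cells it was 3973, and 4514 with only the 2 groups compared and 1494 to 4273 with 1 library left out (1819 and 1667 without WT-1 and WT-2 at day 2, 1917 and 1494 without them at day 4). For the change of the KO effect it was 0, and 5 without the filter, 1 without the trend and 0 to 1 with 1 library left out. Of the 7 genes tested, 4 passed in KO cells and 5 to 6 in WT cells with 1 library left out; with only the 2 groups compared 2 passed in KO cells, where Il6st, Pim1 and Junb were lost. These settings leave fewer residual degrees of freedom, yet with only the 2 groups compared the count was higher in WT cells; the cause was not tested. Without the filter Junb missed the threshold (adjusted p = 0.0781 in KO and 0.0506 in WT cells). Signs of small differences turned for 3 genes with 1 library left out: KO minus WT at day 2 ranged from -0.12 to 0.087 for Junb, -0.044 to 0.029 for Pim3 and -0.066 to 0.37 for Socs3; at day 4 it ranged from -0.17 to 0.077 for Junb, whose change of the KO effect ranged from -0.16 to 0.092. With both KO-i libraries left out Junb was at 0.087 at day 2 and 0.077 at day 4. Library names were tried as a block: deviations of same-named libraries correlated at 0.0849 for WT and 0.260 for KO names, which does not show that names pair samples, and with the block 3705 genes and 6 of the 7 passed in KO cells (Socs3 joined, adjusted p = 0.0215), 4783 genes and 6 in WT cells, and 0 for the change between days. In the LIF columns the share of genes past the mark was 16.5% at day 2 and 23.5% at day 4 with a pseudocount of 0.1; without the filter it was 5.28%, 8.29% and 10.0% at days 2, 4 and 6, 10.9% in ME, 14.4% in NPC and 20.2% in NSC. Lifr in ME passed the mark with a pseudocount of 0.1 (-1.09).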
